A study of Schizosaccharomyces pombe with 40 samples.

Results

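The comparison of Pem2 wild type with ED666 wild type sets 2 fission yeast strains of opposite mating type side by side, with no elongation factor deleted in either. Its members are 4 polyA RNA-seq libraries of Schizosaccharomyces pombe, 2 of Pem2 and 2 of ED666, chosen by their labels from the 40 samples of the series, and all genes of the deposited table were read in them. The series as a whole asked what the loss of ELL (ell1) and of its partners Eaf1 and Ebp1 does to transcription and chromatin, and 17 of its samples are RNA libraries. Pem2 is h- and carries ade6-M210, leu1-32 and ura4-D18, together with mat1_m-cyhS and smt0 at the mating-type locus and rpl42::cyhR(sP56Q), where the ribosomal protein gene rpl42 holds the P56Q change that makes cells resistant to cycloheximide. ED666 is h+ and carries ade6-M210, ura4-D18 and leu1-32. The ade6, leu1 and ura4 alleles are thus shared by both strains. A second pair of groups, Pem2 with ell1 deleted by natMX6 (2 libraries) and ED666 with ell1 deleted by kanMX6 (2 libraries), shares no library with the wild-type pair and was used to look at the same strain difference again. Cultures were in mid log phase in rich YES medium at 32°C.

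Haploid fission yeast cells are of type M (h-) or type P (h+), set by which cassette stands at the active locus mat1. The cassettes mat2-P and mat3-M are silent copies from which mat1 can be rewritten. M cells make the pheromone M-factor, a short farnesylated peptide encoded by the redundant genes mfm1, mfm2 and mfm3, and carry the receptor for P-factor. P cells make P-factor from map2 and carry the M-factor receptor, Map3. Most of this programme is induced by nitrogen starvation, so cells in rich medium keep it low. The smt0 allele is a deletion at mat1 that blocks switching.

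The M-factor genes are shown here because one of them carried the largest increase in Pem2 and because they encode the same peptide. The coding sequences are those of RefSeq (ASM294v3), written 5′ to 3′, and the capitals mark the 27 bases that encode the mature pheromone.
mfm1: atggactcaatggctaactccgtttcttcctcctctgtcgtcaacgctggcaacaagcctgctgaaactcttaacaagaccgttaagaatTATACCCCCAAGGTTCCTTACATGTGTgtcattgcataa
mfm2: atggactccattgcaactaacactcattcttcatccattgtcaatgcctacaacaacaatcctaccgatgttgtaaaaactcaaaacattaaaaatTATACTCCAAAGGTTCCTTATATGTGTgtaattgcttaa
mfm3: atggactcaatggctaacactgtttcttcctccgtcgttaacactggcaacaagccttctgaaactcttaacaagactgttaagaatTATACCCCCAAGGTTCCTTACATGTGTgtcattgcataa
The capitals of mfm1 and mfm3 are identical, and those of mfm2 differ from both at 3 of 27 bases while encoding the same 9 residues. Over the whole coding sequence, the longest run of bases that mfm2 shares with mfm1 or mfm3 is 11 and lies within the capitals. The longest run shared by mfm1 and mfm3 is 48 and includes all of the capitals.

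Depth in the wild-type pair was 35337271 to 40796006 reads in Pem2 and 38150862 to 39240633 in ED666. The unit of level below is scaled CPM, in which 1 read of a library is worth the same for every gene, 0.0245 to 0.0278 in these 4 libraries. The lowest Pearson's r between replicates, over genes on a log2 scale, was 0.994. No label tells whether the replicates are separate cultures, and p-values therefore measure a spread between libraries that may be technical. The limma model takes that spread per gene from all 17 RNA libraries in their 7 groups. ED666 wild type was sequenced in another set as well, with 3 libraries of 6486554 to 7027226 reads. By limma with Benjamini-Hochberg adjustment, 1348 of 6160 tested genes (21.9%) were called between the ED666 set used here and that first set of the same strain and genotype, 1100 higher (17.9%) and 248 lower (4.03%). Set and depth cannot be told apart there. The first set gives a further view of ED666 levels below, and its libraries also enter the spread that limma estimates.

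Few genes were called between the strains by limma, and the count depended on the test. Of 6160 genes tested in limma at an adjusted p of 0.05, 5 were called (0.0812%), of which 3 were higher (0.0487%) and 2 lower (0.0325%) in Pem2 wild type than in ED666 wild type. They were mfm2 and the noncoding RNAs SPNCRNA.1133 and mag2-antisense-1 on the higher side, and the P-cassette gene mat2-Pc and the proteasome subunit gene rpn501 on the lower side. An unadjusted p under 0.05 was found for 5.83% of genes, edgeR called 11 genes (0.179%) on the recovered reads, and DESeq2 called 68 (1.1%), 18 higher and 50 lower. All 5 genes were among the calls of both. The log2 difference was under 0.5 in size for 6022 genes and 1 or more for 22, and the median over all tested genes was 0.00. The 2 libraries of each strain did not overlap for 2655 genes (43.1%), so separation of the 4 libraries alone marks little.

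Reads from the mating cassettes followed the labels. The M-specific gene mat1-Mc, which encodes the HMG-box regulator of M cells, had 11 and 7 reads in Pem2 wild type and 0 and 0 reads in ED666 wild type. Set against a floor of 3 reads over the group, Pem2 was at least 5.92-fold higher. With ell1 deleted, mat1-Mc had 9 and 3 reads in Pem2 and 0 and 0 in ED666, at least 4.19-fold higher by the same floor. Every Pem2 library held mat1-Mc reads and no ED666 library of these groups did, at a level that did not pass the filter for testing. The mat3-M cassette is a copy of the M cassette, and the labels do not state how reads that match both copies were counted. The level of mat1-Mc is therefore uncertain. The companion gene mat1-Mi had 0 reads in all 8 libraries, as did the mat3-M entries except for 1 read of mat3-Mc in Pem2 with ell1 deleted.

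The P cassette went the other way. The gene mat2-Pc, for the P-cell regulator Pc, stood at 0.0557 and 0.0245 scaled CPM in Pem2 wild type, which are 2 reads and 1 read, against 8.48 and 5.67 scaled CPM in ED666 wild type, which are 322 and 214 reads. The ratio of Pem2 to ED666 was 0.00553, with an exact 95% interval of 0.00114 to 0.0162 that covers counting error only. On the log2(scaled CPM + 1) scale mat2-Pc fell by 2.93 (SE 0.24, limma adjusted p = 6.27e-05). In the ell1 deletions it had 1 and 1 reads in Pem2 and 286 and 238 in ED666, a fall of 2.80 (SE 0.24, limma adjusted p = 1.07e-04). The first ED666 wild-type set held 3.49 to 6.78 scaled CPM. The other P gene of the cassette, mat2-Pi, had 0 and 0 reads in Pem2 wild type and 13 and 11 in ED666 wild type, so Pem2 was at least 8.10-fold lower against the same floor. The mat1-P and mat2-P copies are near-identical, and no rows named mat1-Pc or mat1-Pi were found among the deposited genes. Reads under the mat2 names therefore cannot be told apart from reads of a P cassette at mat1.

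Of the pheromone genes, mfm2 was the one called. It stood at 114.4 and 50.7 scaled CPM in Pem2 wild type, against 4.79 and 5.01 in ED666 wild type. The groups did not overlap, and the 2 Pem2 libraries differed from each other more than the ED666 libraries did. The log2 difference was 3.71 (SE 0.36, limma adjusted p = 3.93e-04), and it was 2.21 (SE 0.36, limma adjusted p = 0.0345) in the ell1 deletions, where Pem2 held 39.2 and 22.3 and ED666 held 5.001 and 6.27. The wild-type call ended when only the 4 compared libraries were fitted (limma adjusted p = 0.13). In the first ED666 wild-type set mfm2 was at 3.95 to 6.496, below every Pem2 library. In such bulk samples, fewer cells that make an RNA and less RNA per cell cannot be told apart. The related gene mfm1 was at 2.37 and 1.08 scaled CPM in Pem2 wild type and 0.395 and 0.583 in ED666 wild type, with all 8 libraries apart by strain, but it was not called (0.83, SE 0.35, limma adjusted p = 0.812). For mfm3 the values were 0.529 and 0.515 in Pem2 and 0.685 and 0.954 in ED666, and the log2 difference of -0.25 (SE 0.32) was not called.

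**Figure D1:**
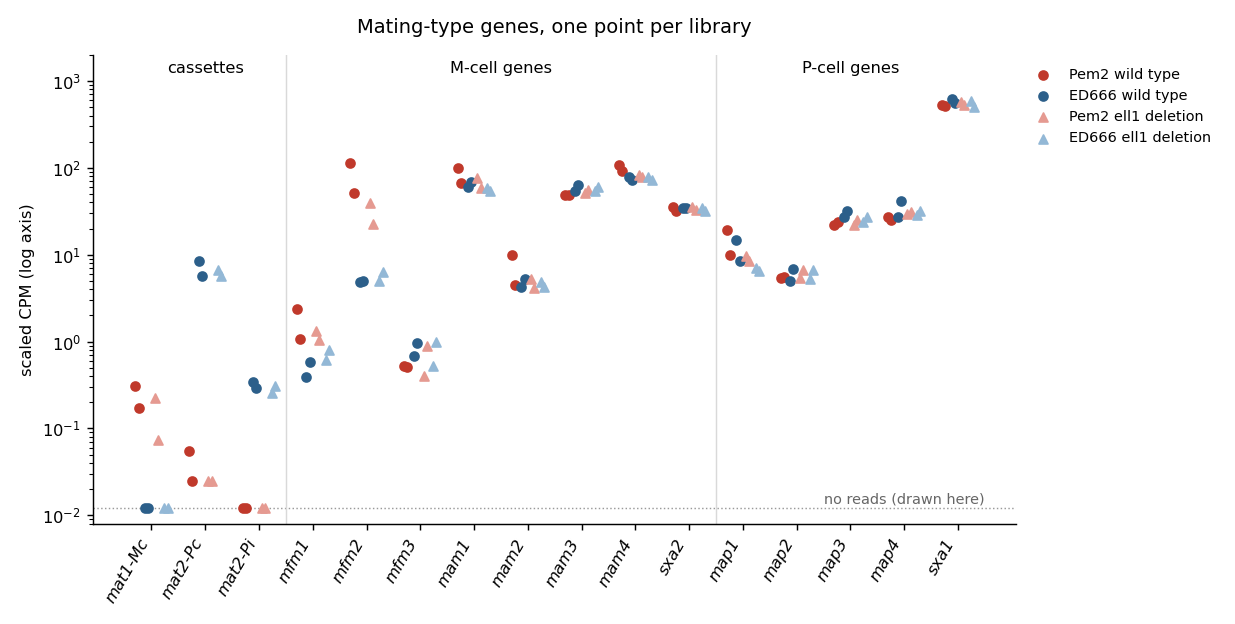
Scaled CPM on a log axis for cassette, M-cell and P-cell genes, one point per library, with Pem2 in reds and ED666 in blues, circles for wild type and triangles for ell1 deletion, and libraries with no reads drawn on the dotted line. The points of mfm2 and of mat2-Pc lie farthest apart by strain, with mfm2 at 114.4 and 50.7 in Pem2 wild type and 4.79 and 5.01 in ED666 wild type, while mfm1 and mam4 separate by smaller distances in all 8 libraries.

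No other gene of the M-cell programme was called. The M-factor exporter gene mam1 had 100.4 and 67.6 scaled CPM in Pem2 wild type and 59.8 and 69.3 in ED666 wild type, and the strains overlapped (0.35, SE 0.16, limma adjusted p = 0.836). The carboxyl methyltransferase gene mam4, which acts on M-factor, had 109.1 and 92.2 in Pem2 and 78.5 and 71.9 in ED666, with all 8 libraries apart by strain but without a call (0.41, SE 0.14, limma adjusted p = 0.613). The P-factor receptor gene mam2 had 9.94 and 4.51 in Pem2 and 4.24 and 5.25 in ED666, and its direction turned without Pem2 replicate 1 (-0.05). The agglutinin gene mam3 and the P-factor-degrading protease gene sxa2 had log2 differences of -0.26 (SE 0.11) and -0.04 (SE 0.10). In all, 1 of 8 M-cell genes was called, against 0.0812% of genes tested, and the list's median was 0.38 in wild type and 0.07 in the ell1 deletions, against 0.00 in both over all genes. All 8 libraries were apart with Pem2 higher for 3 of the 8 (mfm2, mfm1 and mam4), against 4.2% of all genes, and lower for 0. In limma 4 of the 8 had an unadjusted p under 0.05, 3 higher and 1 lower, against 5.83% of all genes. Summed over these 8 genes, the level was 420.2 and 298 in Pem2 wild type and 237.3 and 250.7 in ED666 wild type. Without mfm2 the sums were 305.8 and 247.2 in Pem2 and 232.5 and 245.7 in ED666, which do not overlap, although the lower Pem2 sum lies close to the higher ED666 sum. A shorter set of 8 M-cell markers, which leaves out mam3 and mam4 and adds mat1-Mc and mat1-Mi, summed without mfm2 to 148.5 and 105.9 in Pem2 and 99.2 and 110.5 in ED666, which overlap.

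No P-cell gene was called, and for none of them were all 8 libraries apart by strain. The M-factor receptor gene map3 had 21.7 and 24.05 scaled CPM in Pem2 wild type and 27.1 and 31.8 in ED666 wild type, without overlap but also without a call (-0.35, SE 0.13, limma adjusted p = 0.689). The P-factor precursor gene map2 had 5.40 and 5.52 in Pem2 and 4.98 and 6.76 in ED666. The P-cell agglutinin gene map4 had 27.2 and 25.3 in Pem2 and 26.9 and 42.0 in ED666, and the regulator gene map1 had 19.4 and 9.94 in Pem2 and 14.7 and 8.56 in ED666. The M-factor-degrading protease gene sxa1 had 525 and 511 in Pem2 and 613 and 554 in ED666. By limma, edgeR or DESeq2, 0 of 5 P-cell genes were called. In limma 2 of the 5, map3 and map4, had an unadjusted p under 0.05, both lower in Pem2, against 5.83% of all genes. The 4 P markers read in the table summed to 73.7 and 64.9 in Pem2 wild type and 73.7 and 89.2 in ED666 wild type. Of 17 shared genes of pheromone signalling, such as the transcription factor gene ste11 and the G-protein gene gpa1, 0 were called by limma, edgeR or DESeq2, 1 had an unadjusted p under 0.05, and the median was 0.03.

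Genes beside mat1 were higher in Pem2 mainly on one side of the locus, although 1 of them was called in wild type. Among the 8 tested genes on each side in annotation order, 7 of 16 were higher in all 4 Pem2 libraries than in all 4 ED666 libraries and 0 were lower, against 4.2% and 3.34% of all genes tested. One of the 7, mti3, stands on the side of rga7 and cms1, and the others follow each other from SPNCRNA.388 to snR92, with SPBC23G7.13c-antisense-1 a few genes farther out. The antisense RNA mag2-antisense-1 had 28.8 and 25.0 scaled CPM in Pem2 wild type and 9.64 and 8.82 in ED666 wild type, a log2 difference of 1.44 (SE 0.22, limma adjusted p = 0.0324). This was the call closest to the threshold, and it ended without any 1 of the 4 wild-type libraries (limma adjusted p up to 0.452). With ell1 deleted, mag2-antisense-1 had 24.3 and 20.3 in Pem2 and 15.4 and 12.5 in ED666, a difference of 0.65 that was not called.

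SPBC23G7.10c and SPNCRNA.388, the tested genes between mat1 and mag2-antisense-1, had larger wild-type differences and larger SEs than that RNA. SPBC23G7.10c, which RefSeq annotates as a flavin oxidoreductase, had 13.6 and 37.6 scaled CPM in Pem2 wild type and 2.48 and 2.86 in ED666 wild type (2.70, SE 0.49, limma adjusted p = 0.0828). In the ell1 deletions it had 28.9 and 52.9 in Pem2 and 7.07 and 10.2 in ED666. The noncoding RNA SPNCRNA.388, the tested gene nearest to mat1 on that side, had 20.2 and 18.4 in Pem2 wild type and 4.06 and 4.61 in ED666 wild type (1.93, SE 0.34, limma adjusted p = 0.0701). The first ED666 wild-type set held 5.35 to 8.35 of SPBC23G7.10c and 5.50 to 8.05 of SPNCRNA.388. Both ranges lie above the ED666 wild-type libraries used here and below every Pem2 library. For mag2-antisense-1 that set held 5.08 to 7.74, below the ED666 wild-type libraries used here. In replicate 1 of the ED666 eaf1 deletion SPBC23G7.10c reached 28.6, above the lower Pem2 wild-type library. The DNA glycosylase gene mag2, which lies opposite its antisense RNA, had 0.807 and 1.28 in Pem2 and 0.632 and 0.265 in ED666, close to the filter of 1 scaled CPM. On the other side of mat1 the largest wild-type difference was that of cms1 (0.25), which was not called. Strand use in counting is unstated in the labels, and reads of mag2 cannot be told apart from reads of its antisense RNA. Pem2 carries mat1_m-cyhS and smt0 at this locus and ED666 carries neither in its label, and the part of these alleles in the differences was not tested.

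**Figure D2:**
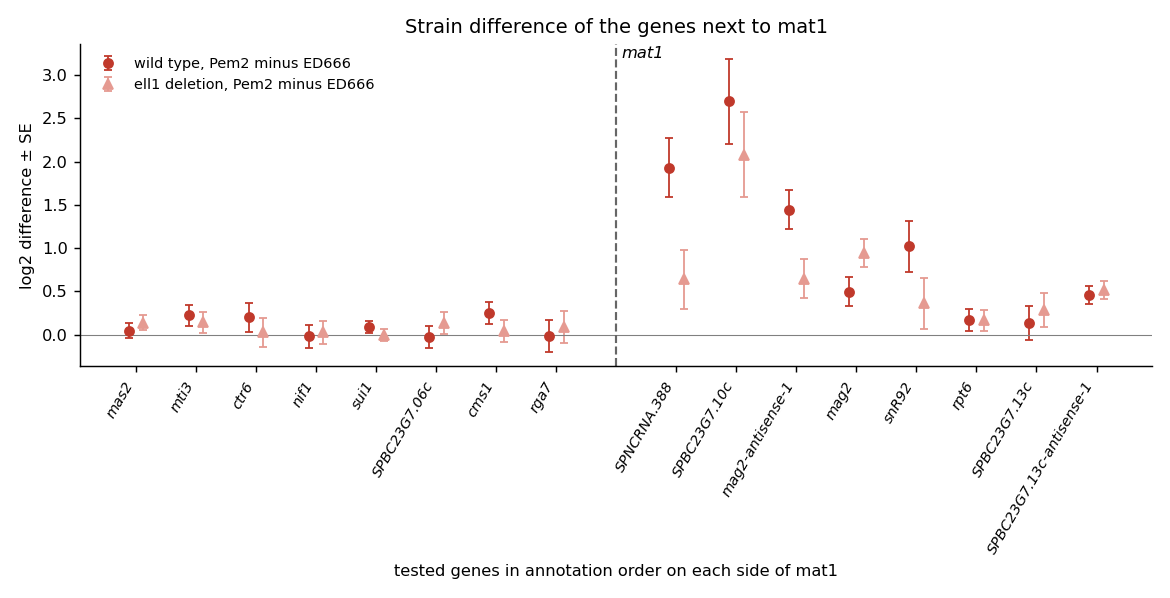
Log2 difference, Pem2 minus ED666, with its SE, for the 8 tested genes on each side of mat1 in annotation order, with circles for the wild-type pair and triangles for the ell1 deletion pair. Values left of mat1 lie near 0, and those from SPNCRNA.388 to snR92 lie above 0 in both pairs, up to 2.70 for SPBC23G7.10c in wild type.

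SPNCRNA.1133 was the remaining RNA that was higher in Pem2. It had 48.3 and 53.2 scaled CPM in Pem2 wild type and 19.9 and 19.1 in ED666 wild type, a log2 difference of 1.33 (SE 0.16, limma adjusted p = 0.00378). In the ell1 deletions it had 46.4 and 48.1 in Pem2 and 20.3 and 20.7 in ED666 (1.17, SE 0.16, limma adjusted p = 0.0123). The first ED666 wild-type set held 16.95 to 25.1, so the 4 Pem2 libraries were above every ED666 wild-type library of either set. Its call ended without Pem2 replicate 2 (limma adjusted p = 0.0831) and without ED666 replicate 2 (limma adjusted p = 0.0829). The adjacent genes pil1, for an eisosome protein, and SPCC594.01 had wild-type differences of 0.03 and 0.14.

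The largest difference belonged to a gene with a near-identical copy. The proteasome regulatory subunit Rpn5 is encoded by rpn501 and rpn502, whose coding sequences of 1332 bases differ at 2 bases in RefSeq (ASM294v3). The stretches around them are shown because they are the only coding bases that can tell a read of one copy from the other. Positions count from the A of the start codon, the capital is the differing base, and the changes are written T978C and T1131C with the base of rpn501 first.
rpn501 at 978: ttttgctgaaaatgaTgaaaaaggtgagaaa
rpn502 at 978: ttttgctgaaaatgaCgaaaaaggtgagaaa
rpn501 at 1131: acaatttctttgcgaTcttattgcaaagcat
rpn502 at 1131: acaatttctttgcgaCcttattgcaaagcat
The longest run shared by the copies is 977 bases. The labels do not state how reads that match both copies were counted, which leaves the value of either copy uncertain.

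In Pem2 wild type rpn501 stood at 0.891 and 0.564 scaled CPM, against 43.3 and 41.0 in ED666 wild type. These are 32 and 23 reads in Pem2 and 1644 and 1549 in ED666. It fell by 4.65 on the log2 scale (SE 0.12, limma adjusted p = 1.22e-10). The copy rpn502 had 133.4 and 134.2 in Pem2 wild type and 92.5 and 85.2 in ED666 wild type (0.59, SE 0.11, limma adjusted p = 0.097). The copies added up to 134.3 and 134.8 in Pem2 wild type and 135.8 and 126.3 in ED666 wild type, so their sums overlapped. In the ell1 deletions rpn501 was near its Pem2 level in both strains, at 0.548 and 0.564 in Pem2 and 0.822 and 0.497 in ED666. All 3 libraries of the first ED666 wild-type set held 24.9 to 28.3. The strain difference of rpn501 itself thus differed between wild type and ell1 deletion (interaction 4.56, SE 0.17, limma adjusted p = 1.16e-08).

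The gene next to rpn501, cox1101, showed a like pattern in another group. It belongs to a second duplicated pair with cox1102, and the coding sequences of 2262 bases differ at 3 bases. In wild type cox1101 had 6.15 and 5.91 scaled CPM in Pem2 and 5.66 and 6.49 in ED666, which overlap. In the ell1 deletions it had 6.17 and 5.61 in Pem2 and 0.211 and 0.449 in ED666, while cox1102 had 6.05 and 5.15 in Pem2 and 9.53 and 8.99 in ED666. The sums of the pair were 12.2 and 10.8 in Pem2 with ell1 deleted and 9.74 and 9.44 in ED666 with ell1 deleted.

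**Figure D3:**
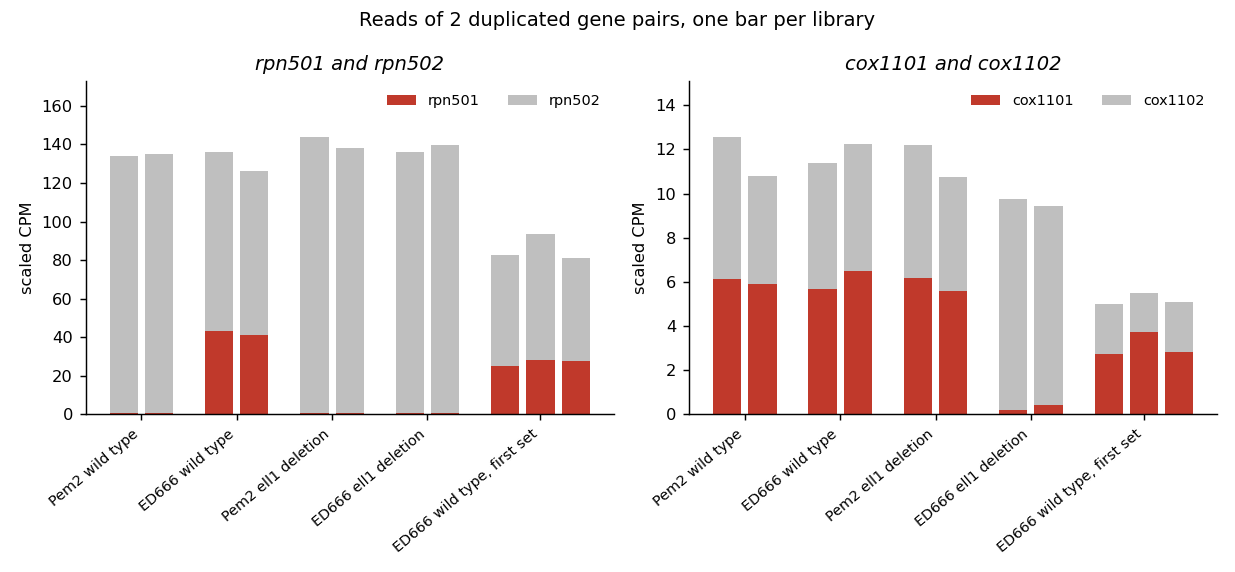
Scaled CPM of rpn501 and rpn502 (left panel) and of cox1101 and cox1102 (right panel), stacked, one bar per library, with the tested copy in red and its partner in grey. The red part is near 0 for rpn501 in both Pem2 groups and in ED666 with ell1 deleted, and for cox1101 in ED666 with ell1 deleted, while the bars of the wild-type pair reach 126.3 to 135.8 for rpn501 plus rpn502.

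The ell1 deletions gave a second look at the strain difference with other libraries of the same strains. The targeted gene ell1 was lower but not at 0 in them, with 25.3 and 31.1 scaled CPM in Pem2 and 16.6 and 20.6 in ED666, against 68.5 and 71.4 in Pem2 wild type and 84.6 and 73.5 in ED666 wild type, and the labels do not state which part of ell1 was deleted. All 5 genes called in wild type had the same sign there, although rpn501 was at only -0.09 (SE 0.12), with overlapping libraries. Of the 5, 3 were called, mfm2, mat2-Pc and SPNCRNA.1133, where 9 of 6160 genes were called in all (0.146%). All 22 genes with a wild-type difference of 2-fold or more had the same sign, and 12 of them were 2-fold or more there too, against 3783 of 6160 genes (61.4%) with the same sign overall. The sign says little for rpn501, ght5 and SPAC750.05c, each at -0.09 in the ell1 deletions. Across the 6160 genes the 2 differences had a Pearson's r of 0.57, given as a description, since genes are not independent replicates. Among the 22 were lid2-antisense-1, with 1.73 and 0.589 scaled CPM in Pem2 wild type and 10.1 and 2.49 in ED666 wild type, and gut2, for a mitochondrial glycerol-3-phosphate dehydrogenase, with 17.1 and 21.6 in Pem2 and 34.4 and 60.2 in ED666. Neither was called (-1.58, SE 0.47, and -1.20, SE 0.30). The interaction test, which asks whether the strain difference changes with ell1, called 2 of 6160 genes (0.0325%), rpn501 and cox1101.

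**Figure D4:**
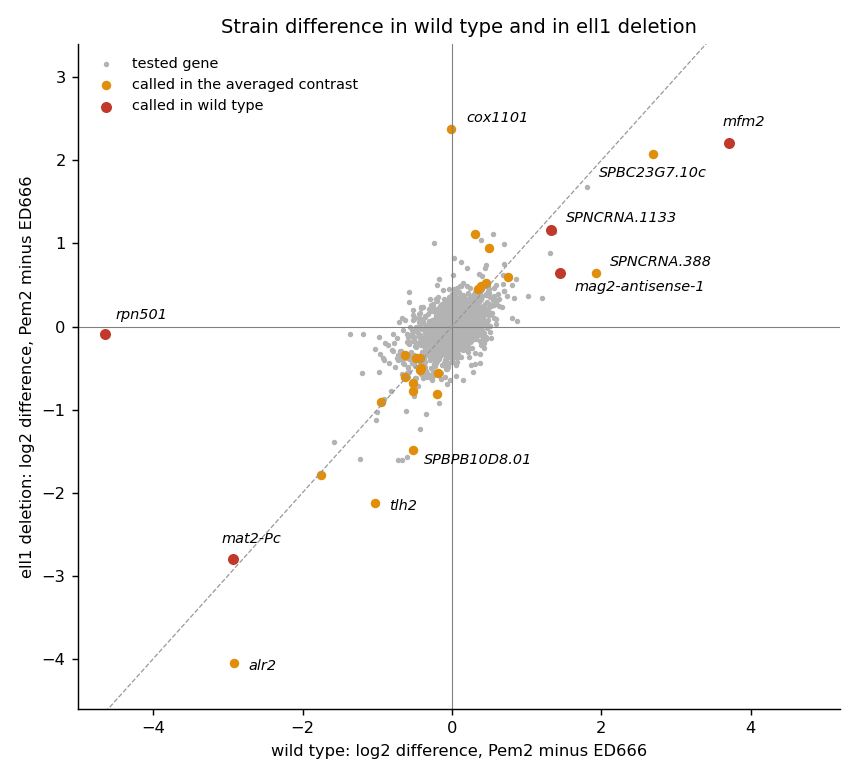
Log2 difference, Pem2 minus ED666, in wild type (horizontal axis) and in ell1 deletion (vertical axis) for 6160 genes, with genes called in wild type in red and further genes called in the average of both differences in orange; the dashed line marks equal differences. Most genes lie within 0.5 of 0, mat2-Pc, alr2 and mfm2 lie far from 0 in both pairs, and rpn501 and cox1101 lie on an axis.

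The average of both differences, 4 Pem2 against 4 ED666 libraries, was added after the data had been seen. In limma it called 29 genes (0.471%), 12 higher (0.195%) and 17 lower (0.276%), and edgeR called 39 (0.633%), of which 25 were the same genes. The 29 were called from these same 8 libraries, so the shares that follow describe the calls and are no separate support. In 23 of the 29 the 4 Pem2 libraries did not overlap the 4 ED666 libraries, against 7.55% of all genes tested. In 14 of the 29 the 4 Pem2 libraries lay outside all 13 ED666 RNA libraries of the series, deletions included, against 2.82% of all genes. The count fell to between 11 and 21 when 1 of the 8 libraries was left out. Both rpn501 and cox1101 are among the 29 although each was called in 1 of the 2 pairs only. Of the 12 higher genes, 5 are the neighbours of mat1 from SPNCRNA.388 to mag2 and SPBC23G7.13c-antisense-1.

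The largest averaged decrease was in alr2, for alanine racemase. It had 2.90 and 5.01 scaled CPM in Pem2 wild type and 32.0 and 39.1 in ED666 wild type, and 1.82 and 2.94 in Pem2 and 39.6 and 73.8 in ED666 with ell1 deleted. The averaged log2 difference was -3.48 (SE 0.44, limma adjusted p = 0.00297), although the wild-type pair alone was not called (-2.91, SE 0.63, limma adjusted p = 0.237). In the first ED666 wild-type set alr2 ranged from 4.38 to 30.2, so its low end reached the Pem2 values. The subtelomeric RecQ helicase gene tlh2 had 0.139 and 0.2699 in Pem2 wild type and 1.32 and 1.62 in ED666 wild type, and 0.274 and 0.417 in Pem2 and 3.55 and 6.51 in ED666 with ell1 deleted. It fell by 1.58 in the average (SE 0.14, limma adjusted p = 1.27e-04), and its value is uncertain since the helicase family has near-identical copies.

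Several of the 29 stand near chromosome ends. Of the 60 outermost tested genes at each end of chromosomes I and II, 7 of 240 were called in the average (2.92%), 6 of them lower, against 20 of 5877 other placed genes (0.34%). The 6 were alr2, tlh2, SPBPB10D8.01, pfl7, atd2 and SPNCRNA.1306, and SPBCPT2R1.04c was the 1 that was higher. They are not all from separate stretches, since pfl7 stands 4 tested genes from alr2 in annotation order. The width of 60 genes was chosen after the data had been seen, and no test is given. SPBPB10D8.01, annotated as a cysteine transporter, had 98.9 and 99.3 scaled CPM in Pem2 wild type and 136 and 149.7 in ED666 wild type, and 51.0 and 40.3 in Pem2 and 124 and 134 in ED666 with ell1 deleted (average -1.005, SE 0.13, limma adjusted p = 0.00327). The wild-type pair alone was not called (-0.52, SE 0.19, limma adjusted p = 0.646). In the first ED666 wild-type set SPBPB10D8.01 was at 78.5 to 85.8, below both Pem2 wild-type libraries. The ED666 sets differed by 0.80 for this gene (SE 0.17, limma adjusted p = 0.00653). The flocculin gene pfl7 had 34.1 and 34.6 in Pem2 wild type and 38.1 and 41.0 in ED666 wild type, a difference of -0.20 that was not called (limma adjusted p = 0.862). In the first ED666 wild-type set pfl7 ranged from 30.6 to 36.9, which spans the Pem2 wild-type values. With ell1 deleted pfl7 had 23.5 and 20.2 in Pem2 and 38.9 and 39.2 in ED666, a difference of -0.81 (average -0.50, SE 0.08, limma adjusted p = 0.0185).

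RNAs named as antisense to a gene made up 10 of the 29, 4 higher and 6 lower. That is 10 of 568 tested (1.76%), against 13 of 4963 protein-coding genes (0.262%) 4 of 566 other noncoding RNAs (0.707%) and 2 of 63 pseudogenes or unmatched entries (3.17%). Of the 10, only exg2-antisense-1 kept its call under every setting tried, and the other 9 lost it in 2 to 15 of up to 22 settings. Among all 29 calls, 10 held under every setting. SPNCRNA.577, antisense to SPBC1652.02, had 0.139 and 0.0491 scaled CPM in Pem2 wild type and 2.90 and 2.46 in ED666 wild type, and 0.149 and 0.294 in Pem2 and 2.28 and 4.42 in ED666 with ell1 deleted. It fell by 1.77 in the average (SE 0.31, limma adjusted p = 0.0245). The RNAs antisense to trm5, a tRNA methyltransferase gene, and to exg2, a glucanase gene, fell by 0.93 and 0.62, and the one antisense to the recombination gene rad52 fell by 0.60. Beside those at mat1, the antisense RNAs that were higher lie opposite ppc1 (0.40) and SPAC22A12.14c (0.67). Over all 568 antisense RNAs the median wild-type difference was 0.02.

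No gene that carries a marker allele was called between the strains. The gene ura4 had 0 reads in all 8 libraries, where both strains carry ura4-D18. The ade6 gene of purine synthesis had 169 and 178 scaled CPM in Pem2 wild type and 194 and 205 in ED666 wild type (-0.20, SE 0.14, limma adjusted p = 0.882), and it was lower in all 4 Pem2 libraries than in all 4 ED666 libraries, against 3.34% of all genes. The rpl42 gene, which is altered in Pem2, had 1867 and 1669 in Pem2 and 1638 and 1658 in ED666 (0.10, SE 0.10, limma adjusted p = 0.919), and leu1 had 543 and 545 in Pem2 and 501 and 623 in ED666. Pem2 also carries mat1_m-cyhS, and whether that allele adds to the reads of rpl42 was not tested. The genes ell1, eaf1 and ebp1, deleted in other groups of the series, had wild-type strain differences of -0.17, 0.09 and 0.03, none of them called.

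Outside the cassettes and the M-cell genes, the gene lists held no member called by limma in wild type. Over 29 further lists with 439 tested genes, limma called 0 in the wild-type pair, 14 had an unadjusted p under 0.05 (3.19%, against 5.83% of all genes), edgeR called 1 (tlh2) and DESeq2 called 2 (tlh2 and sro1). In the wtf family, spore-killer genes with similar copies whose reads may be shared, 21 of 24 had a positive difference in wild type with a median of 0.19, and 20 were positive in both pairs, against 1916 of 6160 genes. The largest was wtf20, with 5.32 and 6.40 scaled CPM in Pem2 wild type and 3.53 and 5.06 in ED666 wild type. All 8 genes of cell separation after division, such as the endoglucanase gene eng1, had a negative difference in both pairs, against 1867 of 6160 genes (30.3%). Their medians were -0.22 in wild type and -0.17 in the ell1 deletions. In wild type 3 of the 8 had an unadjusted p under 0.05, all lower, against 5.83% of all genes, and 0 were called by limma, edgeR or DESeq2. Among the 8, adg2 had 446 and 524 in Pem2 wild type and 674 and 680.5 in ED666 wild type (-0.48, limma adjusted p = 0.571). All 8 hexose transporter genes were likewise negative in both pairs, against the same 30.3% of all genes, with a median of -0.25 in wild type and 0 at an unadjusted p under 0.05. The glucose transporter gene ght5 had 57.4 and 38.4 in Pem2 wild type and 95.1 and 159 in ED666 wild type, and 77.4 and 71.2 in Pem2 and 96.6 and 64.6 in ED666 with ell1 deleted, where the strains overlapped.

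The 131 cytosolic ribosomal protein genes had a median of 0.01 in wild type, with members between -0.12 and 0.29 and 61 of them negative. In the ell1 deletions 129 of the 131 were negative, with a median of -0.10. The 8 tested members of the flocculin list, which holds their regulator gene mbx2, had a median of -0.20 in wild type, with 7 negative, and -0.12 in the ell1 deletions, with 4 negative. The 10 histone genes had a median of 0.00 in wild type. Genes of glycolysis and fermentation were negative in wild type in 16 of 17 cases, with a median of -0.15, and heat shock chaperones in 11 of 13, with a median of -0.13. Over all genes tested, 3058 of 6160 were negative in wild type. In the core stress response 12 of 20 were negative with a median of -0.14, and in the ell1 deletions its median was 0.00. In iron uptake the siderophore transporter gene str3 had 7.88 and 15.9 scaled CPM in Pem2 wild type and 4.398 and 3.52 in ED666 wild type (1.31, SE 0.75, limma adjusted p = 0.861), while its list had a median of 0.09. The 12 RNA polymerase II subunit genes had a median of 0.03 and the 17 genes of heterochromatin and RNA interference -0.04.

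**Figure D5:**
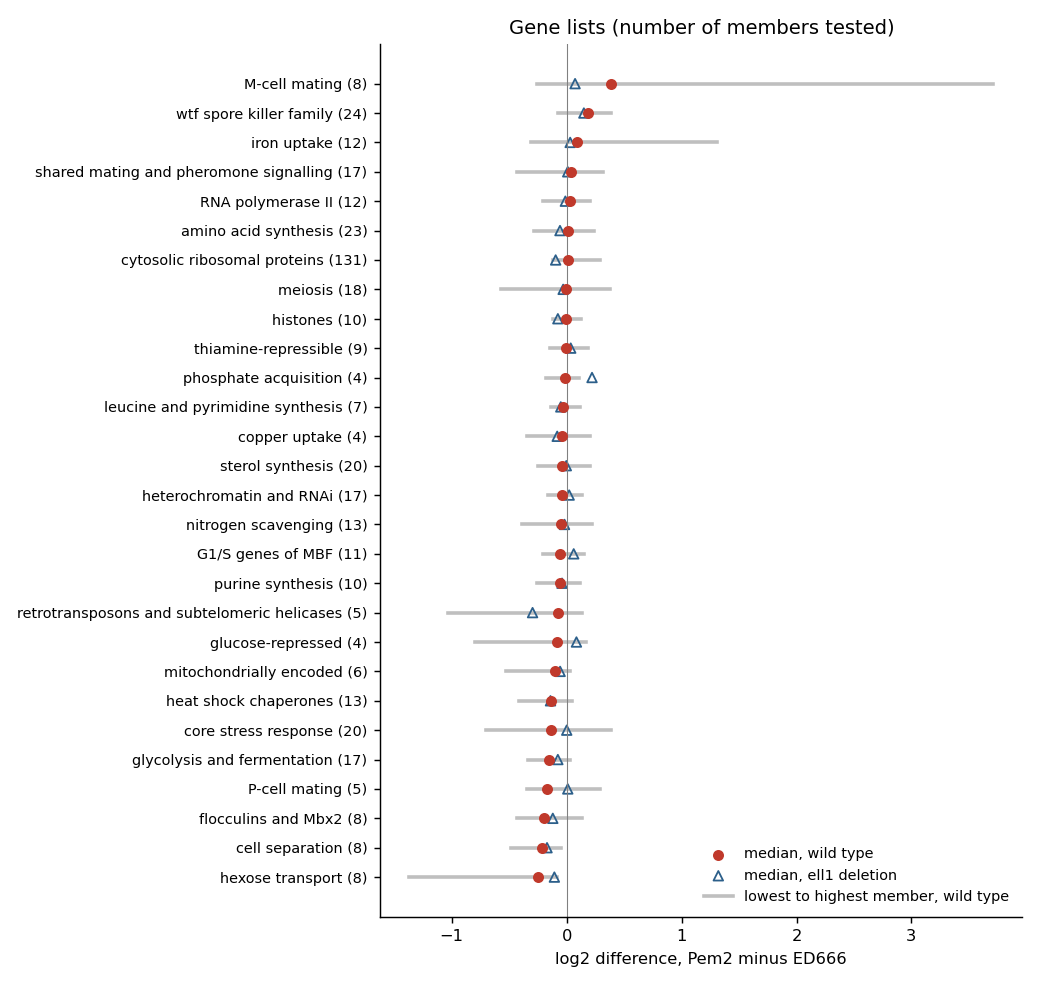
Median log2 difference, Pem2 minus ED666, of each gene list with 4 or more tested members, with red circles for wild type, open triangles for ell1 deletion and grey bars from the lowest to the highest member in wild type. M-cell mating has the highest median (0.38) with mfm2 far to the right at 3.71, hexose transport has the lowest (-0.25), and the rest lie between -0.22 and 0.19.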

How the data were processed

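The RNA values come from 1 deposited table with 7013 genes after a repeated identifier was dropped. Its columns headed cpm were treated as a deposited signal: dividing a library by its own constant gave whole reads for 100% of values (tolerance 0.01), while the library sums ran from 915972 to 1045682. They are called scaled CPM here, and the recovered reads served the count tests. Per the submitters' processing notes, the build was ASM294v2 and the tools named include TopHat2 2.1.1, Bowtie2 2.2.9, SAMtools 1.3.1 and edgeR. Counter, annotation and strand use are unstated there. The ebp1 deletion's columns, whose code no label holds, were assigned by elimination. The reference here is the later build ASM294v3, used for names (6845 of 7013 identifiers matched), gene order and coding sequences, with no coordinates printed.

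The filter kept 6160 genes that reached 1 scaled CPM in 2 or more libraries. One limma model (3.58.1, R 4.3.3) of 7 group means over all 17 RNA libraries was fitted to log2(scaled CPM + 1), with Benjamini-Hochberg adjustment over all 6160 genes and calls at 0.05. Groups of 2 share 1 estimate of the spread per gene, and the log2 scale understates changes of low genes. The contrasts were Pem2 against ED666 in wild type and in ell1 deletion, their interaction, their average (added later) and the ED666 sets. The fit was tested on simulated data. Alternatives were other scalings, pseudocounts, filters and subsets of libraries, a replicate block, edgeR 4.0.16 and DESeq2 1.42.0 on recovered reads, and each library left out. Intervals and the floor of 3 reads cover counting error only, since reads are not independent molecules.

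The libraries, gene lists and tests were chosen with earlier results of these data known. Named genes are the called genes with separate libraries and a mean of 5 or more in the higher group (up to 14 each way), the cassette, M-cell, P-cell, marker and deleted genes, and called members of the other lists. Runs of neighbouring called genes were to be added, and there were none. Genes of the average, the neighbours of mat1, the duplicated partners and the list extremes were named after their values were seen. The 23 chromatin samples were not analysed here.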

Additional observations from a re-analysis of the deposited data

Results flagged for a closer look

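The strain difference of rpn501 was not the same in the wild-type pair and the ell1 deletion pair. Pem2 was lower than ED666 by 4.65 on the log2 scale in wild type, and the difference was -0.09 in the ell1 deletions, an interaction of 4.56 (SE 0.17, limma adjusted p = 1.16e-08). The strain difference of its neighbour cox1101 was -0.01 in wild type and 2.38 in the ell1 deletions, an interaction of 2.38 (SE 0.27, limma adjusted p = 0.00274). Both genes have a near-identical copy, the ED666 ell1 deletion was low in both and Pem2 was low in rpn501 with and without ell1, and the part of read assignment in these values was not tested. The labels do not tell whether the ED666 ell1 deletion libraries come from separate isolates. The loss of ell1 cannot be told apart from other differences of that group.

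Outside the libraries compared here, ura4 had 32 reads in replicate 3 of the ED666 eaf1 deletion, whose label carries ura4-D18, and 0 reads in each of the other 16 RNA libraries.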

How the results depend on the processing

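Of the 5 wild-type calls, mat2-Pc and rpn501 held under every setting tried. The call of mfm2 ended with only the 4 compared libraries (adjusted p = 0.13), and that of mag2-antisense-1 with quantile scaling, a pseudocount of 0.1 and the replicate block. In limma with only the compared libraries, the wild-type pair had 7 calls, 4 of them lower and 4 shared with the 5, the ell1 deletions had 4, the average had 43, 29 of them lower and 21 shared with the 29, and 25 were called between the ED666 sets. With only the 8 libraries of Pem2 and its ED666 set, the wild-type pair had 13 calls (6 higher, 7 lower) and the average again 43, 29 of them lower. In edgeR it had 11 calls (6 higher, 5 lower). In DESeq2 it had 68 (18 higher, 50 lower), against 36 in the ell1 deletions, 4 in the interaction and 141 in the average (44 higher, 97 lower). Between the ED666 sets, rescaling to equal sums gave 873 calls, TMM 739 and quantile scaling 731.

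With 1 library left out, the wild-type pair had 3 to 6 calls (1 to 3 higher, 2 to 4 lower), the ell1 deletions 3 to 5, the interaction 2 to 3, the average 11 to 21 (5 to 7 higher, 6 to 14 lower) and the ED666 sets 584 to 1728. A lone library left in a group is assumed to vary like the other groups.

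Same-numbered libraries deviated together over 6 pairs of groups (r of 0.42 to 0.71), a hint from the data and not the design. The replicate block gave 6 wild-type calls, 12 in the ell1 deletions, 2 in the interaction, 40 in the average and 1396 between the ED666 sets. With only 8 libraries, a setting chosen after seeing the data, the block gave 99 (43 higher, 56 lower), 57 in the ell1 deletions and 259 in the average (112 higher, 147 lower).

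Uncalled genes turned sign as follows. For sxa2 the difference was 0.00454 after rescaling and ran from -0.09998 to 0.0264 with 1 library left out. For leu1 it was 0.00368 after rescaling, 0.0289 with quantile scaling and -0.196 to 0.12 with 1 library left out. With 1 library left out, mam2 ran from -0.0529 to 0.935, map1 from -0.16 to 0.736 and map2 from -0.264 to 0.11. The causes were not tested.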
